A study of Danio rerio with 8 samples.

Results

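The genes described here are the 4 *foxi* forkhead factors of zebrafish (*foxi1*, *foxi2*, *foxi3a*, and *foxi3b*) and 4 genes of skin ionocytes (*gcm2*, *slc12a10.2*, *trpv6*, and *ca2*). They were taken by symbol from the tables of gene levels, each symbol matched 1 identifier, and together they are 8 of the 32057 identifiers listed. All 8 are in the tables of both stages, and no other gene of the tables is named *foxi* with a digit. The question asked of them was whether the high level of *foxi1* in mutant embryos came with other *foxi* genes or with genes of ionocytes. The set was put together because *foxi1* was high in mutants, so the mutant and control values of the 8 genes are a description, no p is given for them, and the number called stands only beside that of all genes.

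RNA was measured by SMART‐seq, in which poly(A) RNA is copied into cDNA and amplified, in *sox10*+ cells sorted by flow cytometry from *Tg(sox10:kikGR)* zebrafish embryos. In this line a *sox10* promoter drives a fluorescent protein in neural crest cells (NCCs). The 4 groups were *slc30a1* mutants at 2 dpf (days post‐fertilization), their sibling controls at 2 dpf, mutants at 2.5 dpf, and sibling controls at 2.5 dpf, with 2 libraries in each group and 8 in all. By the study's methods the mutants lack both *slc30a1a* and *slc30a1b*, which encode zinc exporters, and were recognized by a small head and small eyes. Parents that were *slc30a1a*+/− and *slc30a1b*−/− were used to raise the share of mutants, so that controls from such a cross would also lack *slc30a1b*, but the cross behind the sorted cells is not given in the sources used here. No treatment was given. The labels do not say whether replicates are separate batches of embryos, and p values then measure only the spread between these libraries.

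Levels are in FPKM, in which the fragments mapped to a gene are scaled to its length and to the size of the library. The values summed to between 609800 and 697000 FPKM in a library, with between 22265 and 24327 genes above 0. The reads behind each value are unknown, because the tables hold no counts. The targeted gene *slc30a1a* had 5.96 and 7.06 FPKM in mutants against 12.12 and 11.74 FPKM in controls at 2 dpf. At 2.5 dpf it had 5.44 and 4.98 FPKM in mutants against 8.56 and 11.22 FPKM in controls. It was lower in the mutants without overlap at both stages. Of all genes tested, 12.1% lay wholly below the controls at 2 dpf and 19.2% at 2.5 dpf. *slc30a1a* was not called at either stage (limma, adjusted p = 0.0676 and 0.243). *slc30a1b* was at or below 0.14 FPKM in all 8 libraries and checks nothing. Of the 10 neural crest markers, 9 were at or above 0.5 FPKM in every library, *sox10* had between 47.59 and 156.01 FPKM, and *crestin* was at or below 0.51 FPKM. Between genotypes 0 of the 9 markers tested were called at either stage (3.52% of all genes at 2 dpf and 0% at 2.5 dpf). By unadjusted p under 0.05, 2 were higher at 2 dpf, where 24.6% of all genes passed. At 2.5 dpf 3 were higher and 1 lower, where 12.2% passed. At 2 dpf 6 of the 9 lay wholly above the controls and 0 below (44.8% and 12.1% of all genes). At 2.5 dpf 3 lay above and 2 below (24.3% and 19.2%). Skin markers were also present, since 12 of 15 were at or above 0.5 FPKM in every library, *krt4* and *icn* most of all.

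Ionocytes are cells of the embryonic skin, and later of the gill, that move ions between the water and the body. In zebrafish, Foxi3a and Foxi3b turn epidermal precursors into ionocytes, with Notch signaling limiting how many form, and Gcm2 promotes the type that secretes acid. That type, the proton pump‐rich cell, carries a vacuolar proton pump (V‐ATPase) and the carbonic anhydrase Ca2. Calcium enters through the channel Trpv6 in a second type, the Na+/K+‐ATPase‐rich cell, and Na+ and Cl− enter through the cotransporter Slc12a10.2 in another. Zebrafish Foxi1 is instead known for the otic and epibranchial placodes and for the jaw. In mice and humans, however, *FOXI1* itself is a key factor of ionocytes in the inner ear, kidney, and airway.

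*foxi1* stood apart from the other 7 genes. At 2 dpf it had 20.21 and 20.13 FPKM in mutants against 0.26 and 0.23 FPKM in controls. At 2.5 dpf the values were 12.64 and 23.24 FPKM in mutants against 0.60 and 1.22 FPKM in controls. Every mutant library was therefore at least 10 FPKM above every control library of its stage. The mean was 20.2 ± 0.057 FPKM in mutants and 0.245 ± 0.021 FPKM in controls at 2 dpf (SD, n = 2 each), an 82.3‐fold ratio of means, and 17.9 ± 7.50 FPKM in mutants and 0.910 ± 0.438 FPKM in controls at 2.5 dpf, a 19.7‐fold ratio. On the log2(FPKM + 1) scale, on which changes of weakly expressed genes come out too small, the difference was 4.09 (SE 0.17) at 2 dpf and 3.27 (SE 0.34) at 2.5 dpf. These were the 6th largest rise of 15453 genes at 2 dpf and the 11th of 17379 genes at 2.5 dpf. By the ratio of means *foxi1* ranked 4th of 15445 genes at 2 dpf and 36th of 17363 genes at 2.5 dpf. With a smaller pseudocount of 0.1 the log2 differences were 5.88 and 4.17.

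**Figure D1:**
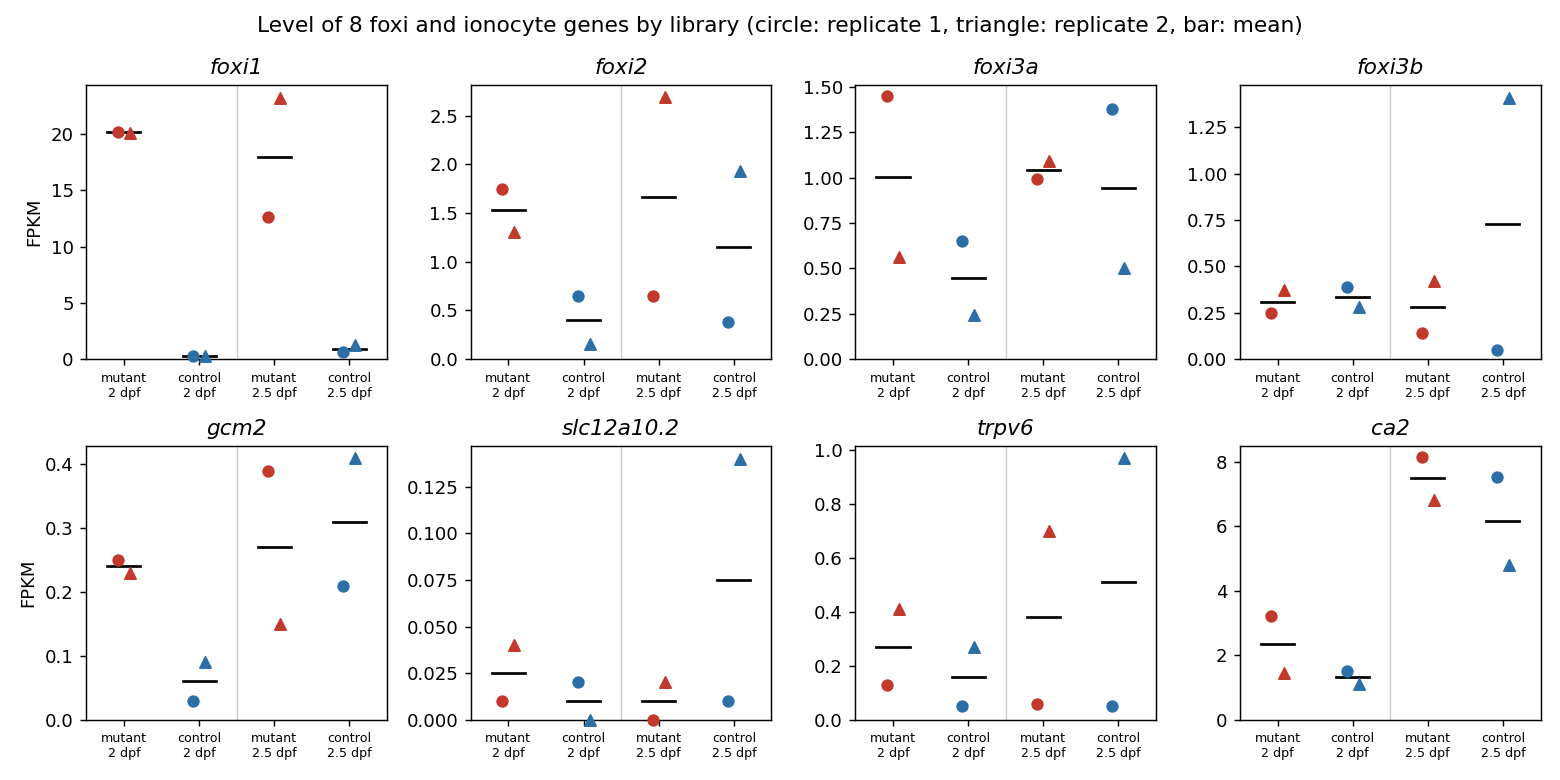
FPKM (vertical axes, linear and starting at 0, a scale of its own for each gene) of the 8 *foxi* and ionocyte genes in mutant (red) and control (blue) libraries at 2 and 2.5 dpf. Circles are replicate 1, triangles replicate 2, and bars the mean of 2 libraries. *foxi1* lies between 12.64 and 23.24 FPKM in mutants and between 0.23 and 1.22 FPKM in controls, whereas the panels of *foxi3a*, *foxi3b*, *trpv6*, and *slc12a10.2* end at 1.45 FPKM or less.

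*foxi2*, known from the retina and branchial arches, had 1.75 and 1.31 FPKM in mutants against 0.65 and 0.15 FPKM in controls at 2 dpf, so the mutant libraries lay above the controls. The log2 difference was 0.87 (SE 0.21), the 627th largest of 15453. At 2.5 dpf it had 0.65 and 2.69 FPKM in mutants against 0.38 and 1.93 FPKM in controls. Here the groups overlapped, with a log2 difference of 0.30 (SE 0.51), and its sign turned to −0.29 without mutant replicate 2.

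*foxi3a* had 1.45 and 0.56 FPKM in mutants against 0.65 and 0.24 FPKM in controls at 2 dpf, a log2 difference of 0.45 (SE 0.25). At 2.5 dpf it had 0.99 and 1.09 FPKM in mutants against 1.38 and 0.50 FPKM in controls, a log2 difference of 0.11 (SE 0.26). The groups overlapped at both stages, and the control library of replicate 1 had the highest value of 2.5 dpf. *foxi3b* was lower still, with 0.25 and 0.37 FPKM in mutants against 0.39 and 0.28 FPKM in controls at 2 dpf. At 2.5 dpf *foxi3b* had 0.14 and 0.42 FPKM in mutants against 0.05 and 1.41 FPKM in controls, so that both its lowest and its highest value were in controls. Its log2 difference was −0.03 at 2 dpf, where it was under the filter on low values, and −0.32 (SE 0.40) at 2.5 dpf.

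The makeup of the family accordingly differed between the groups. FPKM are scaled to transcript length, so the 4 genes can be added up. They summed to 23.66 and 22.37 FPKM in mutants against 1.95 and 0.90 FPKM in controls at 2 dpf, and to 14.42 and 27.44 FPKM in mutants against 2.41 and 5.06 FPKM in controls at 2.5 dpf. *foxi1* made up 85.4% and 90.0% of this sum in mutants at 2 dpf, against 13.3% and 25.6% in controls. At 2.5 dpf its share was 87.7% and 84.7% in mutants, against 24.9% and 24.1% in controls. Among the 56 forkhead genes of the tables, *foxi1* had the 5th highest mean in mutants and the 47th highest in controls at 2 dpf, and the 10th highest in mutants and the 43rd highest in controls at 2.5 dpf.

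**Figure D2:**
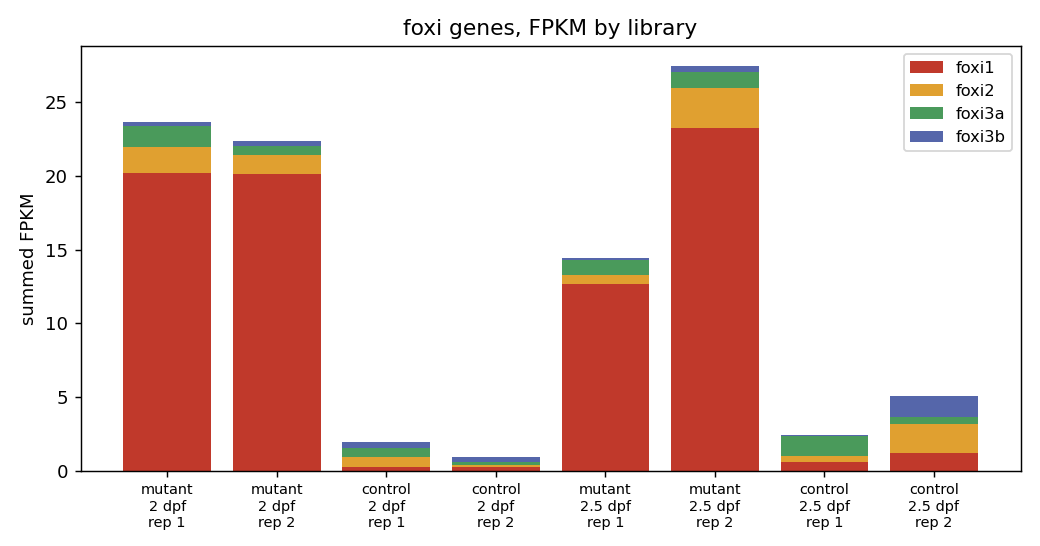
Summed FPKM of the 4 *foxi* genes (vertical axis, starting at 0) in each of the 8 libraries, stacked by gene. *foxi1* makes up between 84.7% and 90.0% of the bar in the 4 mutant libraries and between 13.3% and 25.6% in the 4 control libraries.

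The 4 ionocyte genes did not show the pattern of *foxi1*. *gcm2*, the factor of proton pump‐rich cells, had 0.25 and 0.23 FPKM in mutants against 0.03 and 0.09 FPKM in controls at 2 dpf. It had 0.39 and 0.15 FPKM in mutants against 0.21 and 0.41 FPKM in controls at 2.5 dpf. The mutant values were thus above the control values at 2 dpf and overlapped them at 2.5 dpf, and every value was under 0.5 FPKM. *slc12a10.2* had 0.01 and 0.04 FPKM in mutants against 0.02 and 0.00 FPKM in controls at 2 dpf, and 0.00 and 0.02 FPKM in mutants against 0.01 and 0.14 FPKM in controls at 2.5 dpf. This cotransporter was at or next to 0 in every library. *trpv6* had 0.13 and 0.41 FPKM in mutants against 0.05 and 0.27 FPKM in controls at 2 dpf, and 0.06 and 0.70 FPKM in mutants against 0.05 and 0.97 FPKM in controls at 2.5 dpf. In each of the 4 groups replicate 2 was several times higher than replicate 1 for this channel, and the groups overlapped at both stages.

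*ca2* was the only one of the 8 genes at or above 0.5 FPKM in every library. It had 3.22 and 1.46 FPKM in mutants against 1.51 and 1.11 FPKM in controls at 2 dpf, and 8.14 and 6.82 FPKM in mutants against 7.53 and 4.78 FPKM in controls at 2.5 dpf. The groups overlapped at both stages, and the log2 difference was 0.49 (SE 0.28) at 2 dpf and 0.27 (SE 0.25) at 2.5 dpf. Carbonic anhydrase II is also used by other cell types, so its level alone does not mark ionocytes.

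Genes whose mean reached 0.5 FPKM in the libraries being compared entered the limma fits, and a gene was called at a Benjamini‐Hochberg adjusted p under 0.05. At 2 dpf 4 of the 8 genes passed this filter (*foxi1*, *foxi2*, *foxi3a*, and *ca2*). Of these, *foxi1*, *foxi2*, and *foxi3a* had control means of 0.245, 0.400, and 0.445 FPKM and passed only through the mutant libraries. Of the 4 genes 1 was called, where 3.52% of all 15453 genes were (390 higher and 154 lower, or 195 and 188 after median‐ratio rescaling). At 2.5 dpf 5 passed, with *foxi3b* added only through the controls, and 0 were called, as were 0 (0%) of all 17379 genes. Over all genes, 24.6% at 2 dpf and 12.2% at 2.5 dpf had an unadjusted p under 0.05. At 2 dpf the mutant libraries lay wholly above the controls for 2 of the 4 genes that passed, and for 44.8% of all genes tested. At 2.5 dpf this held for 1 of 5, and for 24.3% of all genes. Because *foxi1* chose the set, nothing is read from these counts.

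The change with stage in controls does not use the mutant libraries. *ca2* rose to 7.53 and 4.78 FPKM in controls at 2.5 dpf, against 1.51 and 1.11 FPKM in controls at 2 dpf, a log2 change of 1.61 (SE 0.26, limma, adjusted p = 0.0218). It was the 290th largest rise of 16321 genes, of which 21.5% were called, 19.1% as higher and 2.48% as lower, and 44.6% had an unadjusted p under 0.05. *foxi1*, with 0.60 and 1.22 FPKM in controls at 2.5 dpf against 0.26 and 0.23 FPKM in controls at 2 dpf, had a log2 difference of 0.60 (SE 0.20, limma, adjusted p = 0.0749). This missed the threshold although the libraries did not overlap. *foxi2* (0.55, SE 0.38, limma, adjusted p = 0.289), *foxi3a* (0.40, SE 0.27, adjusted p = 0.278), and *foxi3b* (0.25, SE 0.38, adjusted p = 0.608) were not called. The 4 *foxi* genes had control means under 0.5 FPKM at 2 dpf. They passed the filter of this fit only through the libraries of 2.5 dpf, where their means are higher. The stages come in separate tables and the median of all genes moved by 0.44 on the log2 scale. With the libraries rescaled by their median ratio that median was 0.02, the calls over all genes were 344 higher and 569 lower in place of 3112 and 405, and *ca2* stood at 1.19 with its call lost (limma, adjusted p = 0.0636). It was also lost without control 2 dpf replicate 1 (1.74, limma, adjusted p = 0.110) or replicate 2 (1.48, 0.138), where 0 of all genes were called (smallest adjusted p 0.101 and 0.102). Without control 2.5 dpf replicate 1 the log2 change was 0.83 for *foxi1*, 1.09 for *foxi2*, 0.85 for *foxi3b*, and 1.33 for *ca2*. That stage then had a single control library, so nothing is read from these changes.

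Replicates differed in a way that touched several of the 8 genes. At 2.5 dpf replicate 2 was higher than replicate 1 in both mutants and controls for *foxi1*, *foxi2*, *foxi3b*, *slc12a10.2*, and *trpv6*, 5 of 8, and for 31.9% of all genes tested. The same held for 12 of 15 skin markers and for 11 of 23 other ionocyte identifiers above 0. At 2 dpf it held for 1 of 8, 2 of 15, and 4 of 22, and for 33.1% of all genes tested. The skin markers summed to 609.0 and 953.5 FPKM in mutants against 363.6 and 1207 FPKM in controls at 2.5 dpf, and to 642.8 and 773.9 FPKM in mutants against 838.2 and 795.6 FPKM in controls at 2 dpf. The mutant and control sums overlapped at 2.5 dpf and were lower in mutants at 2 dpf. Between genotypes 0 of 13 skin markers tested were called at either stage (3.52% of all genes at 2 dpf and 0% at 2.5 dpf). At 2 dpf 2 lay wholly above the controls and 5 below (44.8% and 12.1% of all genes). At 2.5 dpf 2 lay above and 0 below (24.3% and 19.2%). The control library with the highest skin sum, replicate 2 of 2.5 dpf, had 1.22 FPKM of *foxi1*. The part of skin cells in the values of *foxi1* and the other genes was not tested. In such bulk samples, more cells of a type and more RNA per cell cannot be told apart.

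A list of 22 further ionocyte genes, written from general knowledge, covered 24 identifiers. Most were near 0, since 14 of the 24 were under 0.5 FPKM in every library, among them *rhcgb* (an ammonium transporter), *slc9a3.2* (a Na+/H+ exchanger), *atp1a1a.5* (the Na+/K+‐ATPase subunit of proton pump‐rich cells), *ca15a*, and *slc4a1b*. Of the 24, 4 and 4 were at 0 in mutants against 9 and 11 in controls at 2 dpf. At 2.5 dpf 3 and 3 were at 0 in mutants against 10 and 8 in controls. *slc12a10.1* and *slc12a10.3*, not listed at 2 dpf, count as 0 there. Over all genes, 24067 and 22946 were above 0 in mutants against 23029 and 22265 in controls at 2 dpf. At 2.5 dpf these were 23589 and 24327 in mutants against 23159 and 23369 in controls. Differences at this level were not tested. Of the 9 tested at 2 dpf, 1 was called higher (2.52% of all genes), 0 were called lower (0.997%), and the median log2 difference was 0.26, against 0.18 over all genes tested. With median‐ratio rescaling, which moved the median of all genes to 0.00, it was 0.03. Mutant libraries lay above the controls for 4 of the 9, and for 44.8% of all genes. At 2.5 dpf 0 of 10 were called (0% of all genes) and the median was 0.01, against 0.02 over all genes. By unadjusted p under 0.05, 0 were higher and 2 lower at 2.5 dpf (12.2% of all genes, in either direction). Widely used pump subunits were the most abundant. *atp1a1a.1* had 36.81 and 40.33 FPKM in mutants against 28.35 and 40.63 FPKM in controls at 2 dpf, and *atp6v1aa* had 26.10 and 32.82 FPKM in mutants against 25.30 and 23.21 FPKM in controls. Neither was called. The *atp1a1a* genes are close copies, and reads may have been split between them in a way that is uncertain.

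The gene called was *clcn2c*, a chloride channel that in zebrafish works together with Slc12a10.2. It had 1.58 and 1.36 FPKM in mutants against 0.26 and 0.00 FPKM in controls at 2 dpf, and 0.89 and 1.15 FPKM in mutants against 0.03 and 0.67 FPKM in controls at 2.5 dpf. Mutant libraries lay above the controls at both stages, at a level of about 1 FPKM. The gene passed the filter of both stages only through the mutant libraries, where it is high. The log2 difference was 1.14 at 2 dpf (SE 0.17, limma, adjusted p = 0.0276) and 0.62 at 2.5 dpf (SE 0.27, limma, adjusted p = 0.437). The call was lost without any single library (limma, adjusted p between 0.0628 and 0.141) and held in 3 of 11 alternatives, where adjusted p lay between 0.0230 and 0.141. Its partner *slc12a10.2* was at or below 0.14 FPKM in all libraries.

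Some other ionocyte genes were called with stage in controls. *slc4a4b*, a Na+ and bicarbonate cotransporter, had 3.29 and 2.80 FPKM in controls at 2.5 dpf against 0.82 and 0.73 FPKM in controls at 2 dpf, and *igfbp5a*, a binding protein of insulin‐like growth factors found in Na+/K+‐ATPase‐rich cells, had 1.18 and 1.93 FPKM against 0.37 and 0.21 FPKM. Both rose with stage in controls, by a log2 of 1.19 (limma, adjusted p = 0.0210) for *slc4a4b* and 0.97 (limma, adjusted p = 0.0315) for *igfbp5a*, and so did *atp6v1aa* (0.70, limma, adjusted p = 0.0457). These 3 of 8 tested compare with 21.5% of all genes, and 0 of 8 were called after median‐ratio rescaling. Of the 3, *igfbp5a* passed the filter of this fit only through the libraries of 2.5 dpf, where it is higher. In mutants at 2.5 dpf *slc4a4b* had 1.57 and 1.57 FPKM and *igfbp5a* had 0.52 and 0.27 FPKM, below the controls of that stage, with log2 differences of −0.65 (SE 0.19, limma, adjusted p = 0.277) and −0.86 (SE 0.22, limma, adjusted p = 0.239) that were not called. In this comparison *igfbp5a* passed the filter only through the controls, where it is higher. A test of whether mutant and control differed by another amount at 2.5 dpf than at 2 dpf called 0 of 10 ionocyte identifiers, and 0 (0%) of all 16703 genes tested, of which 902 (5.4%) had an unadjusted p under 0.05.

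**Figure D3:**
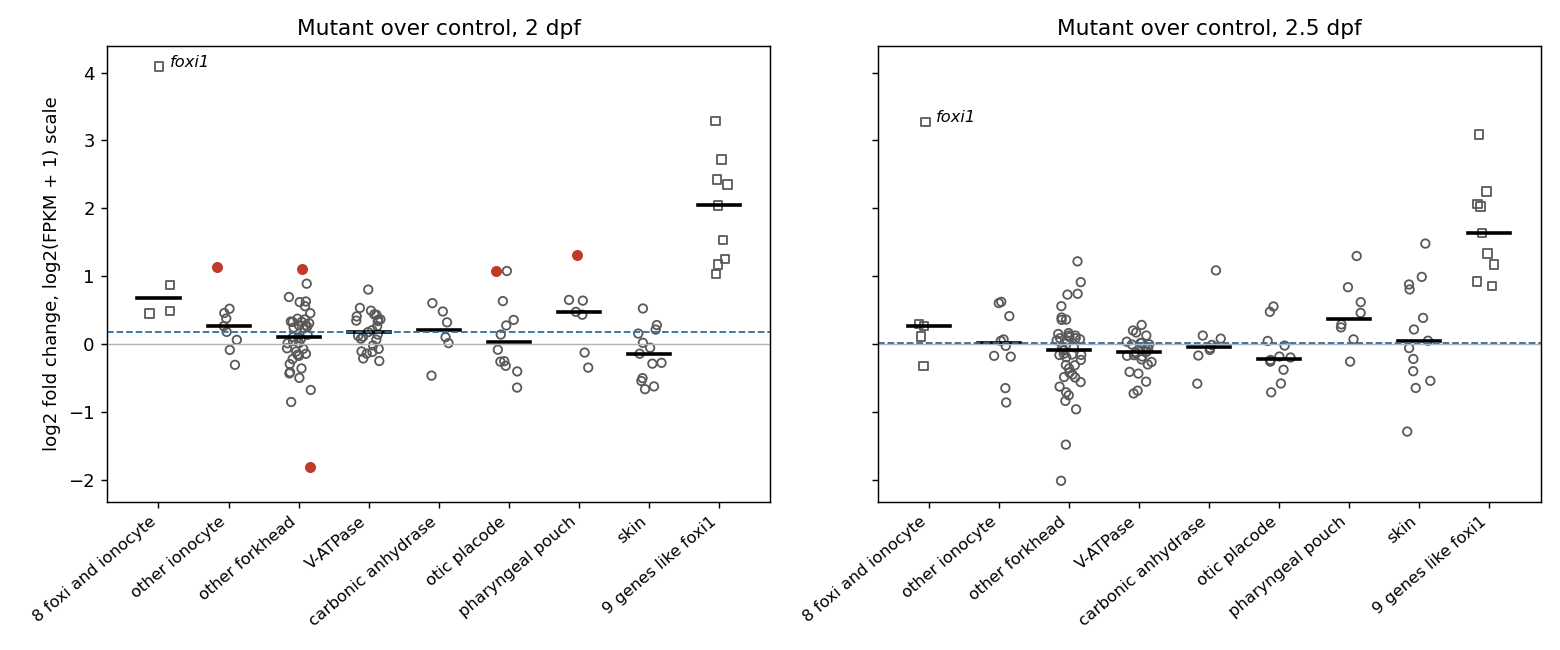
Log2 fold change of mutant over control on the log2(FPKM + 1) scale (vertical axis) at 2 dpf (left) and 2.5 dpf (right) for the genes of each list that passed the filter. Each symbol is a gene, black bars are list medians, the dashed line is the median of all genes tested, filled red circles are genes called by limma, and squares mark the 2 sets chosen from these values, for which calls are not drawn. *foxi1* lies at 4.09 and 3.27, and the medians of the other ionocyte genes lie at 0.26 and 0.01.

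Genes known to act on ionocyte number were not called at either stage, 0 of 6 tested of 8 in the list (3.52% of all genes at 2 dpf and 0% at 2.5 dpf). *notch1a*, a receptor that limits the number of ionocytes, had 4.67 and 5.26 FPKM in mutants against 6.51 and 5.82 FPKM in controls at 2 dpf, and 4.14 and 4.92 FPKM in mutants against 7.41 and 7.22 FPKM in controls at 2.5 dpf. *klf4*, an epidermal factor, had 0.63 and 0.58 FPKM in mutants against 1.11 and 1.00 FPKM in controls at 2 dpf, and 0.89 and 0.71 FPKM in mutants against 1.36 and 1.69 FPKM in controls at 2.5 dpf. Both lay below the controls without overlap at both stages. Taking each stage alone, 12.1% of all genes did so at 2 dpf and 19.2% at 2.5 dpf. The share of genes below at both stages was not counted. Others of the list overlapped the controls at both stages. These were *notch3* (log2 differences of 0.09 at 2 dpf and 0.16 at 2.5 dpf), *mib1* (−0.11 and 0.07), and *tp63* (0.02 and −0.40). *dlc* lay below the controls at 2 dpf and overlapped them at 2.5 dpf (−0.22 and −0.10). *grhl1*, under the filter, lay below them at 2 dpf and above them at 2.5 dpf. *jag2a*, a Notch ligand of ionocyte precursors, was under the filter and lay above the controls at both stages, with 0.39 and 0.24 FPKM in mutants against 0.06 and 0.10 FPKM in controls at 2 dpf, and 0.38 and 0.98 FPKM in mutants against 0.07 and 0.10 FPKM in controls at 2.5 dpf. Of all genes tested, 44.8% lay above the controls at 2 dpf and 24.3% at 2.5 dpf. The median log2 difference of the genes of this list that were tested was −0.17 at 2 dpf and −0.25 at 2.5 dpf, against 0.18 and 0.02 over all genes.

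Targets of Foxi1 that are known from mammals were mostly at low levels. Those matched were *slc26a4* (the anion exchanger of the inner ear), *cftr*, *clcnk*, *bsnd*, *slc4a1b*, and *atp6v1ba*, whereas *atp6v1bb* and *atp6v0a4* were not matched. Of these 6, 5 were under 0.5 FPKM in every library, with at most 0.44 FPKM for *slc26a4* and 0.03 FPKM for *cftr*. At or below 0.17 FPKM, *slc4a1b* lay above the controls at both stages and *clcnk* at 2 dpf (44.8% of all genes at 2 dpf and 24.3% at 2.5 dpf). *atp6v1ba*, a B subunit of the proton pump, had 39.75 and 52.86 FPKM in mutants against 43.41 and 39.82 FPKM in controls at 2 dpf, and 50.94 and 39.25 FPKM in mutants against 54.50 and 53.45 FPKM in controls at 2.5 dpf. It was not called, at log2 differences of 0.14 and −0.27.

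The proton pump was also looked at as a whole. Of 26 V‐ATPase genes, 25 were tested at 2 dpf and 26 at 2.5 dpf, and 0 were called at either stage (3.52% and 0% of all genes). The median log2 difference was 0.17 and −0.12, against 0.18 and 0.02 over all genes. At an unadjusted p under 0.05, 4 were higher at 2 dpf and 3 lower at 2.5 dpf (24.6% and 12.2% of all genes, in either direction). At 2 dpf the mutant libraries of 10 genes lay above the controls and those of 1 below (44.8% and 12.1% of all genes), while at 2.5 dpf 2 lay above and 10 below (24.3% and 19.2%). With median‐ratio rescaling the median of 2 dpf was −0.03. Among 16 other carbonic anhydrases, 0 of 6 tested at 2 dpf and 0 of 8 at 2.5 dpf were called (3.52% and 0% of all genes). The most abundant was *ca6*, a secreted form, with 88.16 and 93.87 FPKM in mutants against 60.18 and 59.08 FPKM in controls at 2 dpf, and 101.50 and 65.98 FPKM in mutants against 49.51 and 29.23 FPKM in controls at 2.5 dpf. Its libraries did not overlap at either stage.

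Of the 52 forkhead genes outside the *foxi* family, 40 were tested at 2 dpf, 1 was called higher (2.52% of all genes) and 1 lower (0.997%). *foxd2*, a gene of mesenchyme, had 13.37 and 14.72 FPKM in mutants against 5.44 and 6.65 FPKM in controls at 2 dpf, a log2 difference of 1.10 (SE 0.18, limma, adjusted p = 0.0346). *foxg1b*, a paralog of the forebrain factor *foxg1a*, had 1.19 and 2.20 FPKM in mutants against 11.92 and 5.75 FPKM in controls, a log2 difference of −1.82 (SE 0.35, limma, adjusted p = 0.0474). At 2.5 dpf *foxg1b* had 1.35 and 2.06 FPKM in mutants against 8.57 and 11.33 FPKM in controls (log2 difference −2.02, limma, adjusted p = 0.0752), and 0 of 43 forkhead genes were called. The median log2 difference was 0.10 over the 40 tested at 2 dpf, or −0.07 with median‐ratio rescaling, and −0.10 over the 43 tested at 2.5 dpf. Both calls were lost without any single library, where log2 differences lay between −2.29 and −1.35 for *foxg1b* and between 0.974 and 1.22 for *foxd2*. They were also lost with median‐ratio rescaling (limma, adjusted p = 0.0502 for *foxg1b* and 0.0626 for *foxd2*) and with the filter dropped (0.129 and 0.0978). The most abundant forkhead gene, *foxc1a* of jaw mesenchyme, had 73.85 and 80.71 FPKM in mutants against 30.23 and 56.18 FPKM in controls at 2 dpf and was not called.

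Tissues in which *foxi1* is known to act in zebrafish were looked at by their marker genes. Of 12 otic placode genes, 1 of 12 tested was called at 2 dpf (3.52% of all genes) and 0 at 2.5 dpf (0%), and their median log2 difference was 0.03 (−0.16 with median‐ratio rescaling) and −0.22. The otic genes summed to 123.6 and 139.6 FPKM in mutants against 146.0 and 129.3 FPKM in controls at 2 dpf, and to 163.9 and 160.9 FPKM in mutants against 163.8 and 196.8 FPKM in controls at 2.5 dpf. The sums overlapped at both stages. Of the 12 otic genes, 4 lay wholly above the controls and 1 below at 2 dpf (44.8% and 12.1% of all genes). At 2.5 dpf 2 lay above and 6 below (24.3% and 19.2%). The called gene was *eya1*, a transcriptional cofactor of placodes and pharyngeal arches, with 18.84 and 18.96 FPKM in mutants against 9.15 and 7.86 FPKM in controls at 2 dpf (log2 difference 1.07, SE 0.17, limma, adjusted p = 0.0330). At 2.5 dpf it had 22.07 and 17.69 FPKM in mutants against 12.41 and 13.95 FPKM in controls. Of 7 epibranchial genes, 3 lay wholly above the controls and 1 below at 2 dpf (44.8% and 12.1% of all genes). At 2.5 dpf 3 lay above and 4 below (24.3% and 19.2%). Their median log2 difference was −0.09 at 2 dpf and −0.26 at 2.5 dpf, against 0.18 and 0.02 over all genes. *neurod1* had the lowest log2 difference of the 7 at both stages. It had 11.69 and 11.98 FPKM in mutants against 32.12 and 14.46 FPKM in controls at 2 dpf. At 2.5 dpf it had 15.76 and 19.92 FPKM in mutants against 50.02 and 54.2 FPKM in controls (log2 difference −1.50, limma, adjusted p = 0.0867). *eya1* was also the 1 call among these 7 at 2 dpf (3.52% of all genes), and 0 of 7 were called at 2.5 dpf (0%). Its call was lost without any single library, where its log2 difference lay between 0.971 and 1.17. It was also lost with median‐ratio rescaling (limma, adjusted p = 0.0633) and with the filter dropped (0.0884).

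Of 9 pharyngeal pouch genes, 7 were tested at 2 dpf, 1 was called higher (2.52% of all genes), and 5 lay above the controls and 1 below (44.8% and 12.1% of all genes). The called gene was *ripply3*, a repressor that works with Tbx1 in the vertebrate pharynx. It had 1.92 and 2.11 FPKM in mutants against 0.29 and 0.15 FPKM in controls at 2 dpf, a log2 difference of 1.31 (SE 0.15, limma, adjusted p = 0.0147). It passed the filter of both stages only through the mutant libraries, where it is high. At 2.5 dpf it had 1.88 and 3.68 FPKM in mutants against 0.49 and 0.50 FPKM in controls, a log2 difference of 1.30 (SE 0.27, limma, adjusted p = 0.181), and 0 of 8 pouch genes were called. The median log2 difference of the list was 0.47 at 2 dpf and 0.37 at 2.5 dpf, or 0.33 and 0.36 with median‐ratio rescaling. The pouch genes summed to 19.87 and 22.52 FPKM in mutants against 10.44 and 15.11 FPKM in controls at 2 dpf, and to 28.24 and 28.15 FPKM in mutants against 18.59 and 24.21 FPKM in controls at 2.5 dpf, so these sums did not overlap. The call of *ripply3* at 2 dpf was kept with both rescalings and without mutant replicate 2. It was lost without mutant replicate 1, control replicate 1, or control replicate 2 of that stage. Without a library its log2 difference lay between 1.22 and 1.39. The call was also lost with the filter dropped (limma, adjusted p = 0.0718), where 47 of 25884 genes were called. With the filter at 2 FPKM *ripply3* was not tested.

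The pattern of *foxi1* over the 8 libraries was compared with that of 7911 genes by Pearson's r of log2(FPKM + 1). The libraries share a genotype and a stage in groups of 2, so r describes these libraries and carries no p. Among the closest genes were *shtn1* (r = 0.997), *lnx1* (0.996), *ccnd3* (0.995), *ano11* (0.992), *zgc:66024* (0.992), *ms4a17a.5* (0.992), *si:busm1-105l16.2* (0.990), *zgc:66313* (0.990), and *rspo1* (0.990). These 9 are higher in mutants than in controls at both stages, which follows from how they were found, with log2 differences between 1.03 and 3.29 at 2 dpf and between 0.85 and 3.09 at 2.5 dpf. *ccnd3* encodes a D‐type cyclin and *rspo1* a secreted enhancer of Wnt signaling. *lnx1*, a ubiquitin ligase gene, had 9.61 and 8.68 FPKM in mutants against 1.00 and 0.78 FPKM in controls at 2 dpf, and 7.66 and 11.36 FPKM in mutants against 1.05 and 1.99 FPKM in controls at 2.5 dpf. In all, 297 of the 7911 genes had r at or above 0.9 with *foxi1*.

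**Figure D4:**
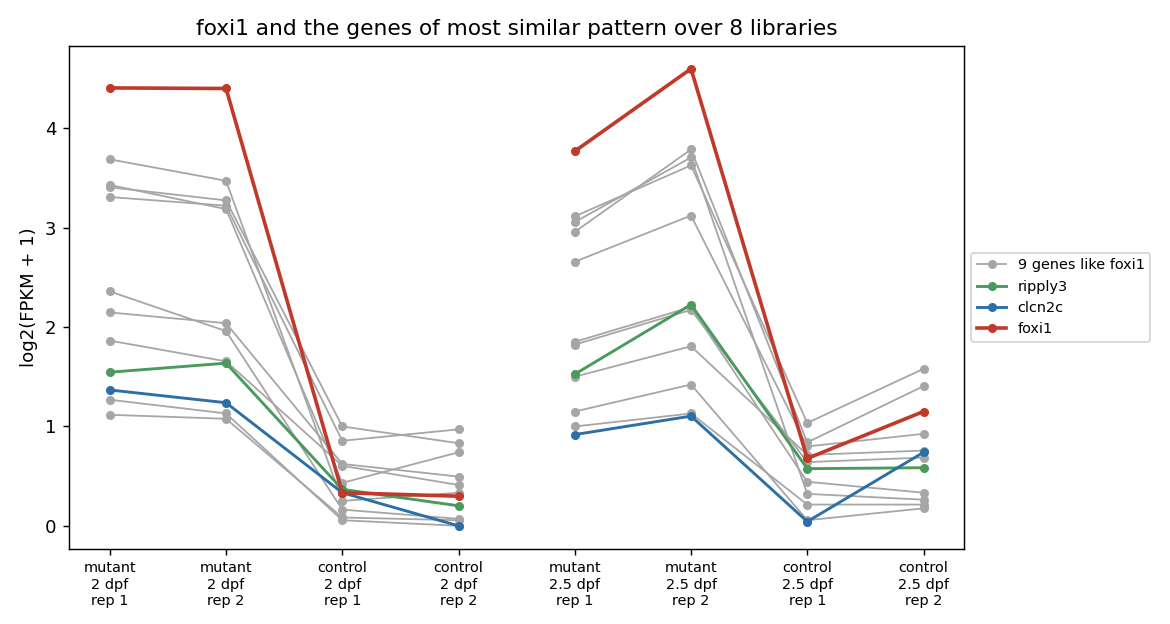
log2(FPKM + 1) (vertical axis) in the 8 libraries (horizontal axis) of *foxi1* (red), 9 of the genes of highest r with it (gray), the pouch gene *ripply3* (green), and the chloride channel gene *clcn2c* (blue). Lines join the values of a gene within a stage and carry no time. The lines of *foxi1* and the gray genes are high in the 4 mutant libraries and low in the 4 control libraries, which is how the 9 were found, with r between 0.990 and 0.997.

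Of the other 7 genes of the set, only *foxi2* (rank 1289) and *ca2* (rank 3347) were among the 7911 compared, and neither was among these 297. The rest missed the limits of that comparison (a mean of 0.5 FPKM and a range of 1 on the log2 scale) and were not ranked. The r with *foxi1* was 0.655 for *foxi2*, 0.447 for *foxi3a*, 0.351 for *gcm2*, 0.263 for *ca2*, 0.158 for *trpv6*, −0.141 for *foxi3b*, and −0.153 for *slc12a10.2*. Among the list genes that were ranked, *ripply3* had r = 0.967 (rank 73 of 7911), *clcn2c* 0.924 (rank 209), and *eya1* 0.894 (rank 330). The ionocyte channel gene *kcnj1a.1*, at or below 0.20 FPKM, was under the limit on level and not ranked, and had r = 0.895. Apart from it and *clcn2c*, the further ionocyte genes with an r lay between −0.397 (*igfbp5a*) and 0.755 (*slc4a1b*).

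The genes beside *foxi1* were mostly at low levels. In the order of genes in the RefSeq annotation of assembly GRCz12tu, which is not the one the reads were aligned to, 4 of the 8 nearest places held a gene listed in the tables. They were *ptprea* (a receptor phosphatase) and *clrn3* on one side and *zgc:112964* and *si:ch73-329n5.6* on the other. *ptprea* had 0.30 and 0.47 FPKM in mutants against 0.26 and 0.45 FPKM in controls at 2 dpf, and 3.01 and 1.37 FPKM in mutants against 4.97 and 1.68 FPKM in controls at 2.5 dpf. *zgc:112964* was at or below 0.55 FPKM, *clrn3* at or below 0.03 FPKM, and *si:ch73-329n5.6*, listed only at 2.5 dpf, at 0. Mutant and control values of *ptprea* overlapped at both stages, and it was not called at 2.5 dpf (log2 difference −0.38, limma, adjusted p = 0.801). It rose with stage in controls by a log2 of 1.57 (limma, adjusted p = 0.0397), but passed the filter of that fit only through the libraries of 2.5 dpf.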

How the data were processed

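The authors sequenced SMARTer oligo(dT) cDNA of sorted cells with paired ends on a NovaSeq instrument. HISAT was used for alignment to GRCz11 and StringTie for the assembly, merging, and level of transcripts, and the authors deposited FPKM per gene and library in 1 table for each stage, with tool versions not given in the sources used here. These FPKM were used as deposited, by gene identifier, and 0 columns of values belonged to no sample. The authors' selection by fold change and p was not used.

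Mutants and controls of a stage, controls of both stages, and the interaction of genotype and stage were fitted by limma 3.58.1 (lmFit, eBayes with a variance trend) in R 4.3.3 on log2(FPKM + 1), for a mean of 0.5 FPKM or more, and p was adjusted by Benjamini‐Hochberg over every gene in the fit and called under 0.05. The calculation was tested on simulated data. Depth is unknown, so no counting error can be given, and groups of 2 libraries limit the precision. Stage and table cannot be told apart.

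Besides the 8 genes, lists of other ionocyte genes, genes upstream of ionocytes, mammalian Foxi1 targets, V‐ATPase subunits, carbonic anhydrases, other forkhead genes, and otic, epibranchial, pharyngeal pouch, skin, and neural crest markers were used (*atp6v1bb*, *atp6v0a4*, and *phox2bba* were not matched). Named were the 8 genes, list genes called in a fit or among the 4 most abundant of a list, *slc30a1a* and *slc30a1b*, the 4 genes on each side of *foxi1*, and the 10 of highest r with it (mean of 0.5 FPKM or more, range of 1 or more on the log2 scale). Of those 10, 1 is not reported here. Not all of the others are given singly, and list genes outside this rule were chosen after their values were seen. The genes and lists were chosen with earlier results of these data known. Lists share some genes, such as *eya1*, *atp6v1aa*, *slc4a1b*, *ca15a*, *tp63*, and *foxd3*. As alternatives the fits were run without each library in turn, with a replicate block, with all 8 libraries together, without the variance trend, after median‐ratio rescaling or quantile normalization, with the filter dropped or raised to 2 FPKM, and with a pseudocount of 0.1.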

Additional observations from a re-analysis of the deposited data

Results flagged for a closer look

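*anxa1c*, an annexin gene of the skin list, and *atp6v0cb*, a membrane subunit of the proton pump, had all mutant libraries on opposite sides of the controls at the 2 stages. *anxa1c* had 6.27 and 8.37 FPKM in mutants against 13.69 and 10.05 FPKM in controls at 2 dpf, a log2 difference of −0.63, and 4.76 and 4.18 FPKM in mutants against 0.94 and 0.98 FPKM in controls at 2.5 dpf, a log2 difference of 1.48. *atp6v0cb* had 61.19 and 54.31 FPKM in mutants against 54.17 and 33.36 FPKM in controls at 2 dpf, a log2 difference of 0.43, and 67.82 and 61.01 FPKM in mutants against 72.68 and 101.53 FPKM in controls at 2.5 dpf, a log2 difference of −0.41. Both were picked out by these directions without a test. The interaction of genotype and stage did not call either gene, as it called 0 of all 16703 genes tested. No p is given for them, because these directions picked them. None of the 8 *foxi* and ionocyte genes had such opposite directions. Groups of 2 libraries are too small to look for single outlying libraries.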

How the results depend on the processing

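The log2 difference of *foxi1* at 2 dpf was 4.09, and 5.88 with a pseudocount of 0.1, 3.94 after rescaling by the median ratio, and 3.93 after quantile normalization. It was 3.27 at 2.5 dpf, and 4.17 with a pseudocount of 0.1. It lay between 4.07 and 4.11 and between 2.86 and 3.69 with a library left out. Its sign could not turn there, because every mutant library of *foxi1* lay above every control library of its stage. The 1 call among other ionocyte genes at 2 dpf was 0 with the filter dropped or raised to 2 FPKM (where *clcn2c* was not tested), a pseudocount of 0.1, quantile normalization, or all 8 libraries in a single fit, and 0 with any library left out. Their 0 calls at 2.5 dpf and for the interaction stayed 0 in every alternative. The 1 call with stage in controls, *ca2*, was 0 with no filter, median‐ratio rescaling, or quantile normalization, and between 0 and 4 with a library left out. Without control 2 dpf replicate 1 or replicate 2, 0 genes of all were called at 2 dpf (smallest limma adjusted p 0.101 and 0.0932), so lost calls there say little of single genes. The log2 change of *foxi3b* with stage in controls turned to −0.094 with quantile normalization. The cause was not tested.

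With the replicate block, which rests on numbers that the labels do not tie to a shared clutch or day, 830 genes were called at 2 dpf in place of 544, 738 at 2.5 dpf in place of 0, and 1113 with stage in controls in place of 3517. Over the genes that passed the filter, differences between replicates correlated between mutants and controls with r = 0.144 at 2 dpf and 0.371 at 2.5 dpf. Each r sets the 2 mutant libraries of a stage against its 2 control libraries. The log2 difference of *foxi1* was the same, *clcn2c* was called at 2 dpf (limma, adjusted p = 0.0230), *ripply3* at 2.5 dpf (0.0192), and 5 other forkhead genes at 2.5 dpf in place of 0. Both *clcn2c* and *ripply3* passed the filter of these fits only through the mutant libraries. With all 8 libraries in a single fit 249 genes were called at 2.5 dpf and 2 of them were forkhead genes, and a filter at 2 FPKM called 28 of all genes there. Over all genes the other alternatives called between 0 and 535 at 2 dpf and between 0 and 3507 with stage in controls.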

Other observations

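A few list genes at low levels, picked out after their values were seen, had mutant and control libraries apart at both stages. *foxq2*, a forkhead gene of anterior ectoderm in many animals, was listed at 0 in all 4 mutant libraries against 1.07 and 0.86 FPKM in controls at 2 dpf and 1.70 and 1.90 FPKM in controls at 2.5 dpf. It was under the filter at 2 dpf. At 2.5 dpf it passed only through the controls and was not called, and no p is given because these values picked it. *kcnj1a.1*, a potassium channel of ionocytes, had 0.12 and 0.11 FPKM in mutants against 0.00 and 0.04 FPKM in controls at 2 dpf, and 0.18 and 0.20 FPKM in mutants while it was listed at 0 in both controls at 2.5 dpf. *rhcgb* had 0.05 and 0.03 FPKM in mutants at 2 dpf and 0.40 and 0.07 FPKM in mutants at 2.5 dpf, and was listed at 0 in all 4 control libraries. *slc4a1b* had 0.17 and 0.05 FPKM in mutants against 0.00 and 0.00 FPKM in controls at 2 dpf. At 2.5 dpf it had 0.09 and 0.06 FPKM in mutants against 0.04 and 0.00 FPKM in controls. An identifier of *slc26a6*, at or below 0.16 FPKM, lay above the controls at both stages, and the other overlapped them at 2.5 dpf. Except for *foxq2* at 2.5 dpf these genes were under the filter and have no test. Over all genes tested, the mutant libraries lay above the controls for 44.8% at 2 dpf and 24.3% at 2.5 dpf. They lay below for 12.1% and 19.2%, and the share apart at both stages was not counted. Among the other ionocyte genes *clcn2c* also lay above the controls at both stages. *igfbp5a*, *slc4a4b*, *rhbg*, and an identifier of *atp2b2* lay below them at 2.5 dpf.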
